A study of Mus musculus with 45 samples.

Results

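The TGF-beta family genes described here were the 10 rows of the count table with the symbols Bmp2, Bmp4, Bmp7, Inhba, Inhbb, Tgfb1, Tgfb2, Tgfb3, Fst and Grem1, out of 24422 gene symbols. The first 8 encode secreted ligands or their subunits, and Fst and Grem1 encode antagonists that bind ligands outside the cell. Their levels were followed in whole uterine horn (uterus), in scraped mucosa (endometrium) and in the muscle wall left behind (myometrium) of wildtype (WT) and Plag1 knockout (Plag1KO, KO) CD-1 females, with 7 mice per genotype and all 3 tissues from each mouse. CD-1 is an outbred stock, Plag1 encodes a zinc finger transcription factor, and in the constitutive KO allele lacZ stands in place of its open reading frame. All mice, WT and KO, were sexually mature females (1 to 3 months is the age the study's methods give for superovulated females) that received 5 IU of PMS and, 2 days later, 5 IU of hCG to induce superovulation, and were killed the next day. The comparisons asked whether the uterus of the KO mother differs from that of WT, and how its layers differ from each other.

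Ligands of this family bind pairs of type I and type II receptor kinases on the cell surface, and the activated receptors phosphorylate Smad proteins that enter the nucleus with Smad4. BMPs act mainly through Smads 1, 5 and 9, and activins and TGF-betas through Smads 2 and 3. In the mouse uterus Bmp2 is known for its part in decidualization of the stroma, Bmp7 and follistatin for theirs in the preparation for implantation, and the TGF-betas for smooth muscle and stromal differentiation. Activin B is a dimer of the subunit encoded by Inhbb, and activin A of the subunit encoded by Inhba.

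STRT RNA-seq gave the levels, and each count in it is a molecule tagged near the 5′ end of its transcript. Library totals ranged from 264095 to 1232992 counts over 45 libraries, and counts of repeat libraries of the same mouse and tissue were summed. A level is given in CPM, counts scaled to a common total of gene counts per sample, and a floor of 3 counts, the upper limit that a count of 0 allows, corresponded to 1.23 to 11.7 CPM depending on the sample. The labelled layers were checked with marker lists. The summed level of 5 epithelial genes had a median of 1254 CPM in WT and 1739 in KO endometrium against 170 and 265 CPM in myometrium, and that of 6 smooth muscle genes 2243 and 790 CPM against 22660 and 29030. The sum of 5 fibroblast or stroma genes was also lower in endometrium, with medians of 1846 and 1994 CPM against 4495 and 6895. It was at most 2523 and 2239 CPM in endometrium samples and at least 3735 and 3586 CPM in myometrium (WT and KO). In 2 endometrium samples, WT mouse 3 and KO mouse 13, the smooth muscle sum reached 13690 and 13160 CPM, against at most 4608 CPM in the other endometrium samples, so calls of the 10 genes between the layers, and the correlations of Tgfb2 and Inhbb between tissues, are also given without these mice. The oviduct and cilia genes Ovgp1 and Foxj1 summed to 6193 CPM in the endometrium of WT mouse 8, against at most 577 CPM in any other sample. Calls of the 10 genes between the WT layers are also given without this mouse. Of 5 ovarian granulosa markers, Amh, Cyp19a1 and Fshr had 0 counts in every group, and Foxl2 and, outside KO uterus, Inha were detected. Their sum had a median of 21.1 CPM in WT and 20.7 in KO endometrium (at most 45.6 in a sample), 9.39 and 7.47 in myometrium and 5.64 and 3.86 in uterus, and its part in the differences between layers was not tested. Apart from 3 repeat libraries placed in rows of another tissue, each tissue filled rows of its own within a block of mice, so tissue and plate row cannot be told apart.

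Of the 10 genes, 9 had at least 1 CPM in at least 5 samples and were tested in each comparison, and Grem1 was not. By group, median counts were 6 to 34 for Fst, 25 to 42 for Tgfb2, 4 to 24 for Tgfb3, 3 to 12 for Inhbb and 1 to 10 for Bmp7, and 1 to 8 for Bmp2, Bmp4, Inhba and Tgfb1. For this last set the samples were mostly near the floor, and only large differences could be detected. Bmp7 was also mostly near the floor in myometrium and in KO uterus. Its counts per sample were 0 to 3 in KO myometrium and KO uterus and 0 to 10 in WT myometrium. For 0 of the 10 genes did the lowest sample of one group lie above the highest of the other in any comparison of tissues or genotypes. The share of all genes with such a separation was not counted, so this describes the overlap and is no trait of these genes. When the 6 groups were ordered by mean log2(CPM + 1) for each gene, 1 pair of neighbours differed by more than the larger of the 2 SDs, which was Bmp7 in KO endometrium above WT uterus.

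**Figure D1:**
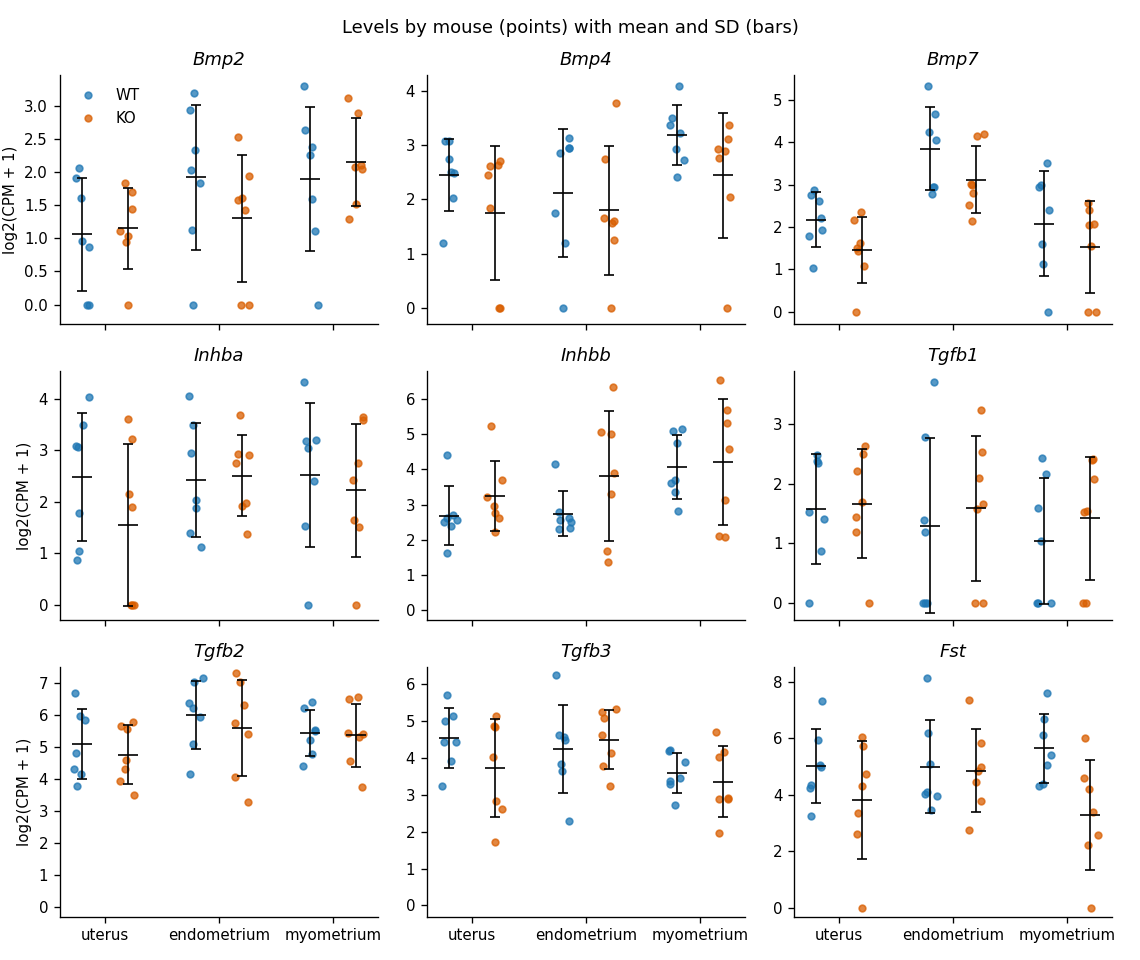
Level of the 9 tested genes in each mouse, as log2(CPM + 1) on the vertical axis of each panel, for uterus, endometrium and myometrium of WT (blue) and KO (orange) mice, with the mean and SD of 7 mice in black. Bmp7 points are highest in endometrium, Inhbb points of KO endometrium span the widest range of that gene's endometrium samples, and the points of all group pairs overlap.

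The DNA before the start of these genes was searched for the PLAG1 consensus, a GC-rich core and a second G-rich cluster separated by a short spacer, because PLAG1 is the factor removed in the KO mice. RefSeq promoters of GRCm38.p6 were at hand for 6 of the 10 genes (Bmp4, Grem1, Inhba, Inhbb, Tgfb1 and Tgfb2) and not for Bmp2, Bmp7, Fst and Tgfb3. In the 250 bases upstream of the start, on both strands, 3 of these 6 held a match (1 in Bmp4, 2 in Tgfb1, 3 in Grem1), against 16.8% of 32851 promoters. Inhba, Inhbb and Tgfb2 held 0. The 3 promoters with a match and that of Inhbb, the gene with the largest KO over WT difference in endometrium, are shown 5′ to 3′ along the gene's strand up to the base before the start, with PLAG1 matches in capitals.
Bmp4 (chr14:46390670-46390919, minus strand): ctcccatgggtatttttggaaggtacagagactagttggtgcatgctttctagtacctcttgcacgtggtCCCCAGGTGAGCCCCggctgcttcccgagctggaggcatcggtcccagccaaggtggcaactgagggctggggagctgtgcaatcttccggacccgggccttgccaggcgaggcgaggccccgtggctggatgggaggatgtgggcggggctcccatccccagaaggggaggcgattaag
Tgfb1 (chr7:25686752-25687001, plus strand): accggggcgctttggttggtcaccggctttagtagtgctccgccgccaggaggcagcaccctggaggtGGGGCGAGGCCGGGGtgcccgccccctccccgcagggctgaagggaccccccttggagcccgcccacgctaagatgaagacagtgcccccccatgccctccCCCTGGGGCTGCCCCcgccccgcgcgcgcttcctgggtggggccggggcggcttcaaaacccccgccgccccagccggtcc
Grem1 (chr2:113758649-113758898, minus strand): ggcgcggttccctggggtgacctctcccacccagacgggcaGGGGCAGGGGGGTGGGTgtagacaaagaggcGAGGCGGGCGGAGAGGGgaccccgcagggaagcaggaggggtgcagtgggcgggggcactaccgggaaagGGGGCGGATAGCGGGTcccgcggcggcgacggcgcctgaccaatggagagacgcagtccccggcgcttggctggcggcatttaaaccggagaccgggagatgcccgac
Inhbb (chr1:119422249-119422498, minus strand): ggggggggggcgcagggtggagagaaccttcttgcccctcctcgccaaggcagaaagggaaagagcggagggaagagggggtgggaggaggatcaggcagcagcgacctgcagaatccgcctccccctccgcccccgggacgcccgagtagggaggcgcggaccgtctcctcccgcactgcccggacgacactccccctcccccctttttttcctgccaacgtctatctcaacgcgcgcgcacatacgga
The promoters with matches were GC-rich (63.2% GC in Bmp4, 75.2% in Tgfb1 and 72% in Grem1), and so was that of Inhbb (68%), which has none. Bmp4 and Tgfb1 passed the test between genotypes in none of the 3 tissues, and Grem1 was at or near 0 throughout.

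Of Bmp2, Bmp4 and Bmp7, Bmp7 was the one called between the layers, higher in endometrium in both genotypes. Bmp7 (chr2:172693513-172765822, minus strand, NCBIM37) encodes a BMP of the 60A subgroup. In WT its level ran from 5.91 to 39 CPM (median 15.5) in endometrium and from 0 to 10.4 CPM (median 4.31) in myometrium. In KO it ran from 3.38 to 17.4 CPM (median 6.99) in endometrium and from 0 to 4.93 CPM (median 3.13) in myometrium. Each of the 7 WT mice and 6 of the 7 KO mice had more Bmp7 in endometrium than in its own myometrium, although the groups overlapped. These directions rested on few counts, such as 2 against 0 in WT mouse 5. The log2 fold change of endometrium over myometrium was 1.62 ± 0.53 (SE) in WT (edgeR adjusted p = 0.0425) and 1.75 ± 0.59 in KO (edgeR adjusted p = 0.0380).

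Both Bmp7 calls lay close to the threshold. Leaving out 1 mouse at a time, the edgeR adjusted p in WT was 0.0432 to 0.0934 and the call was lost for 5 of 7 mice, and in KO it was 0.0343 to 0.162 and the call was lost for 6 of 7. Without WT mouse 3 the change was 1.75 (edgeR adjusted p = 0.0432), and without KO mouse 13 it was 1.89 (edgeR adjusted p = 0.0531). Without WT mouse 8, the mouse with the high oviduct and cilia sum, the WT change was 1.54 and not called (edgeR adjusted p = 0.0934). In whole uterus Bmp7 ran from 1.03 to 6.35 CPM in WT and from 0 to 4.12 CPM in KO, below the mouse's own endometrium in 7 of 7 WT and 6 of 7 KO mice. The uterus over endometrium change was -1.75 ± 0.47 in WT (edgeR adjusted p = 0.0611) and -1.85 ± 0.54 in KO (edgeR adjusted p = 0.0906), neither past the threshold. With the mouse as a block the WT change became -1.68 and passed it (edgeR adjusted p = 0.0224).

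Bmp2 and Bmp4 stayed low in all groups. Bmp2 (chr2:133377895-133388621, plus strand), which encodes the BMP needed for the decidual response, had 8 to 15 counts in total per group and mean levels of 1.38 to 3.86 CPM. Its layer change was -0.02 in WT and -0.86 ± 0.64 in KO (edgeR adjusted p = 0.993 and 0.385). It was lower in uterus than in myometrium in 7 of 7 KO mice, with a log2 change of -1.09 ± 0.63 that did not pass the test (edgeR adjusted p = 0.267). Bmp4 (chr14:47003195-47010344, minus strand), which encodes a BMP closely related to BMP2, averaged 8.66 ± 3.87 CPM (SD) in WT myometrium and 4.43 ± 3.12 CPM in WT endometrium. The difference between these WT layers, -1.20 ± 0.53 on the log2 scale, did not pass the test either (edgeR adjusted p = 0.149). In KO the layer change of Bmp4 was -0.61 ± 0.66 (edgeR adjusted p = 0.582). Bmp4 overlaps the opposite-strand genes Gm15217 and Gm15222 in the annotation, and the use of strand in counting was not stated.

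Inhbb, the activin B subunit gene (chr1:121312042-121318825, minus strand), was lower in endometrium than in myometrium of WT mice. It ran from 3.9 to 16.7 CPM (median 4.87) in WT endometrium and from 6.01 to 34.4 CPM (median 12.1) in WT myometrium. The myometrium was higher in 6 of 7 WT mice, WT mouse 5 being the exception. The log2 change was -1.71 ± 0.44 (edgeR adjusted p = 0.00964), and it was called in 6 of the 7 fits that left out a mouse, the exception being that without WT mouse 12 (-1.46, edgeR adjusted p = 0.0661). Without WT mouse 3 it was -1.54 (edgeR adjusted p = 0.0392), and without WT mouse 8 it was -1.76 (edgeR adjusted p = 0.0137). In KO mice, 6 of 7 also had less Inhbb in endometrium. The KO values ran from 1.59 to 81 CPM (median 13.9) in endometrium and from 3.23 to 92.6 CPM (median 22.9) in myometrium. The KO change of -0.46 ± 0.61 did not pass the test (edgeR adjusted p = 0.662), nor was it called with the mouse as a block.

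Whole uterus held less Inhbb than myometrium in 7 of 7 WT and 5 of 7 KO mice. Uterus levels ran from 2.06 to 20.5 CPM in WT and from 3.67 to 37 CPM in KO. The uterus over myometrium change was -1.26 ± 0.45 in WT (edgeR adjusted p = 0.0710) and -1.47 ± 0.56 in KO (edgeR adjusted p = 0.0763). Both passed the threshold with the mouse as a block (-1.36 with edgeR adjusted p = 0.0199 in WT, and -1.13 with 0.0339 in KO), and with ERCC scaling they were -0.49 and -1.08 (edgeR adjusted p = 0.432 and 0.224). Inhba (chr13:16103684-16119044, plus strand), the activin A subunit gene, averaged 3.67 to 6.95 CPM by group with SDs of 3.45 to 6.17 CPM, and no tissue comparison of it had an unadjusted p under 0.05. Its layer change was -0.60 ± 0.61 in WT and -0.10 ± 0.53 in KO (edgeR adjusted p = 0.612 and 0.927).

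Tgfb3 was higher in whole uterus than in myometrium of WT mice, where it was the single gene of the 10 called. TGF-beta 3, its product, is a secreted regulator of matrix and of mesenchymal differentiation, and the gene lies at chr12:87397694-87419991 on the minus strand. Its level ran from 8.46 to 51.2 CPM (median 20.6) in WT uterus and from 5.63 to 17.7 CPM (median 10) in WT myometrium, with uterus higher in 6 of 7 mice. The log2 change was 1.23 ± 0.35 (edgeR adjusted p = 0.0227). It fell under the threshold in 3 of the 7 fits that left out a mouse (edgeR adjusted p of 0.0875 without mouse 5, 0.0923 without mouse 7 and 0.0560 without mouse 12). In KO the same change was 0.77 ± 0.49 (edgeR adjusted p = 0.313).

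Endometrium over myometrium, Tgfb3 changed by 1.05 ± 0.45 in WT and 1.06 ± 0.40 in KO, with edgeR adjusted p of 0.137 and 0.0681. In KO mice endometrium values ran from 8.56 to 39.4 CPM and myometrium values from 2.89 to 25.1 CPM, with endometrium higher in 6 of 7. The KO change passed the test with the mouse as a block (1.07, edgeR adjusted p = 0.0310). In mice 1 to 8 (KO mice 2, 4 and 6) it was 0.13 ± 0.52 (edgeR adjusted p = 0.912). In mice 9 to 14 (KO mice 9, 11, 13 and 14) it was 2.19 ± 0.50 (edgeR adjusted p = 0.0134). The difference between these blocks of the plate was not tested. Without KO mouse 13 the KO change was 0.77 (edgeR adjusted p = 0.25).

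Tgfb2 (chr1:188447065-188529871, minus strand), which encodes TGF-beta 2, showed no change between tissues past the test. It averaged 76.8 ± 46.4 and 69.4 ± 56.6 CPM (SD) in WT and KO endometrium, 47.2 ± 23.6 and 48.7 ± 31.3 CPM in myometrium, and 42.6 ± 33 and 31 ± 18.4 CPM in uterus. The endometrium over myometrium change was 0.66 ± 0.38 in WT (edgeR adjusted p = 0.298) and 0.56 ± 0.46 in KO (edgeR adjusted p = 0.442). Tgfb1 (chr7:26472021-26490096, plus strand), the gene of the founding TGF-beta, averaged 1.57 to 2.98 CPM by group, and it passed the test in no comparison. Its layer change was 1.00 ± 0.84 in WT and 0.38 ± 0.75 in KO (edgeR adjusted p = 0.513 and 0.783).

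Fst (chr13:115242470-115249159, minus strand) encodes follistatin, which binds activins and, more weakly, some BMPs. Its level in WT endometrium ran from 10 to 277 CPM (median 16.2), the highest being mouse 1, and in WT myometrium from 18.8 to 194 CPM (median 41.4), the highest being mouse 3. In KO it ran from 5.7 to 164 CPM (median 27.6) in endometrium and from 0 to 63 CPM (median 9.4) in myometrium. The layers thus overlapped over most of their range in both genotypes. Endometrium was the higher layer in 3 of 7 WT and 6 of 7 KO mice, with changes of -0.38 ± 0.57 (edgeR adjusted p = 0.751) and 1.28 ± 0.58 (edgeR adjusted p = 0.132). With the mouse as a block the KO change was 1.30 and was called (edgeR adjusted p = 0.00759). Leaving out 1 mouse at a time without the block it ran from 0.60, without KO mouse 11 (edgeR adjusted p = 0.520), to 2.06, without KO mouse 4 (edgeR adjusted p = 0.0257), and it was 1.19 without KO mouse 13 (edgeR adjusted p = 0.216). It was -0.43 ± 0.70 in mice 1 to 8 and 2.27 ± 0.67 in mice 9 to 14 (edgeR adjusted p = 0.764 and 0.0519), a difference that was not tested.

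Grem1 (chr2:113586321-113598803, minus strand), whose product gremlin 1 sequesters BMP2, BMP4 and BMP7, had 1 count in the uterus of WT mouse 1 and 1 in that of KO mouse 9. It had 0 counts in all other samples, so its level was under the floor of 3 counts everywhere.

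Counted over the 9 tested genes, 2 were called between endometrium and myometrium of WT mice (1 higher and 1 lower, against 13.2% of all 13227 genes tested) and 1 in KO mice (against 19.3% of 12969). For uterus over myometrium it was 1 in WT (against 12% of 13104 genes) and 0 in KO (against 14.1% of 12970), and for uterus over endometrium 0 in WT (against 1.6% of 13091) and 0 in KO (against 1.25% of 12961). In each of the 3 comparisons with 0 calls by edgeR, 1 gene had an unadjusted p under 0.05, which was Inhbb for uterus over myometrium in KO and Bmp7 for uterus over endometrium in WT and in KO (against 28.2%, 15.1% and 14.4% of all genes in that order). DESeq2 called Bmp7 for uterus over endometrium in WT, and 0 genes in the other 2 of these comparisons. For uterus over endometrium the changes of the 8 tested genes other than Bmp7 lay between -1.13 (Bmp2) and 0.56 (Bmp4) in WT and between -1.03 (Inhbb) and 0.22 (Tgfb1) in KO. For uterus over myometrium those of the genes other than Inhbb and Tgfb3 lay between -1.10 (Bmp2) and 0.73 (Tgfb1) in WT and between -1.09 (Bmp2) and 0.68 (Fst) in KO. The median log2 change of the 9 genes was -0.02 in WT and 0.38 in KO for endometrium over myometrium, against 0.01 and 0.08 over all genes tested. The comparisons within a genotype share samples and are not independent of each other. The fits behind these counts did not pair the tissues of a mouse. With the mouse as a block, endometrium over myometrium had 2 calls in WT and 3 in KO. Over all genes these were 1850 of 13227 and 2776 of 12969. For uterus over endometrium it was 1 and 0 (all genes 671 of 13091 and 475 of 12961). For uterus over myometrium it was 2 and 1 (all genes 1678 of 13104 and 2186 of 12970). In bulk tissue, fewer cells that make a transcript and less transcript per cell cannot be told apart. The layers also differed in the epithelial, muscle and stroma sums given above, whose part in these results was not tested.

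**Figure D2:**
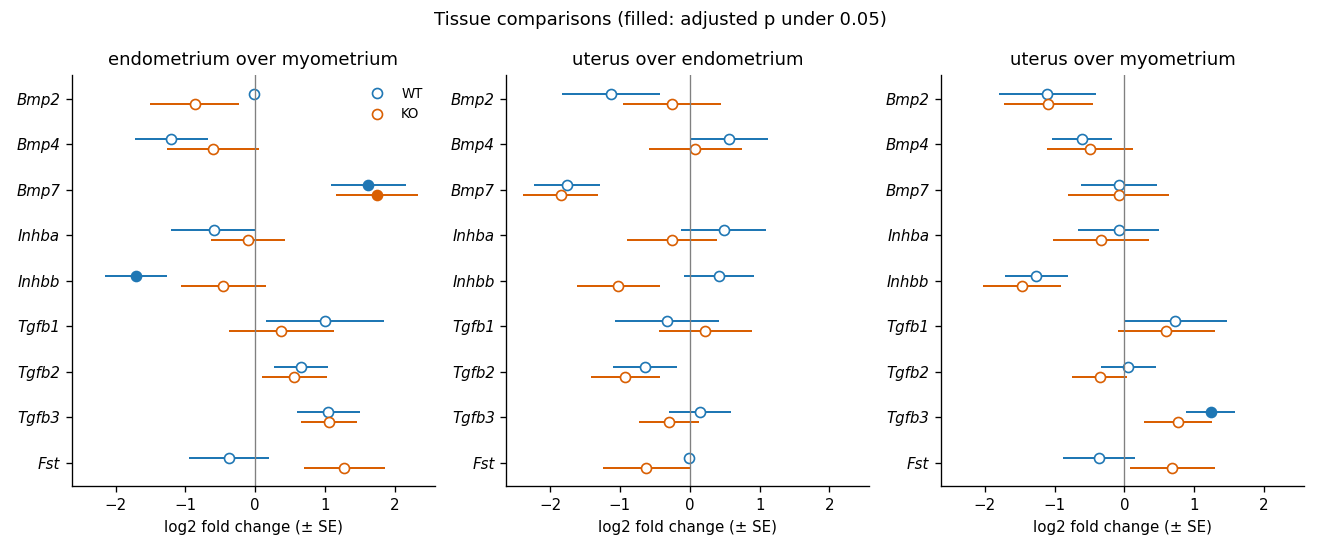
Log2 fold change (horizontal axis, with SE) of the 9 tested genes between tissues within WT (blue) and KO (orange) mice, 7 mice each, with filled symbols where the edgeR adjusted p was under 0.05 and no bar where the change was under 0.05 in size. Filled symbols are Bmp7 in both genotypes and Inhbb in WT for endometrium over myometrium, and Tgfb3 in WT for uterus over myometrium.

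No gene of the 10 differed between KO and WT past the adjusted threshold in any tissue, and 0% of all genes did (12959 tested in uterus, 13004 in endometrium and 12991 in myometrium, by edgeR). Unadjusted p values under 0.05 were found for 0 of the 9 in uterus, 1 in endometrium and 1 in myometrium, against 5.64%, 5.2% and 4.22% of all genes tested. These 2 were Inhbb in endometrium and Fst in myometrium. DESeq2 also called 0 of the 9 in each tissue.

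Inhbb in endometrium ran from 1.59 to 81 CPM (median 13.9) in KO and from 3.9 to 16.7 CPM (median 4.87) in WT. KO mice 6, 11 and 13, at 31.4, 81 and 32.5 CPM, lay above the highest WT mouse, and KO mice 9 and 14, at 2.18 and 1.59 CPM, lay below the lowest. The log2 change was 2.09 ± 0.60 (edgeR adjusted p = 0.765). Leaving out 1 mouse at a time it ran from 1.55, without KO mouse 11, to 2.33. It was 1.69 ± 0.63 in mice 1 to 8 and 2.31 ± 1.16 in mice 9 to 14, which occupied different plate rows. The WT mice of the latter block were mice 10 and 12 alone, and the change there had an unadjusted edgeR p of 0.0711. KO over WT, Inhbb changed by 0.64 ± 0.52 in uterus and by 0.82 ± 0.48 in myometrium (edgeR adjusted p = 0.940 and 1.00).

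Fst in myometrium ran from 0 to 63 CPM (median 9.4) in KO and from 18.8 to 194 CPM (median 41.4) in WT. KO mouse 4, at 63 CPM, was the only KO mouse above 23.5 CPM, and 5 of 7 WT mice were above that value. The log2 change was -1.92 ± 0.50 (edgeR adjusted p = 0.655). Leaving out 1 mouse at a time it ran from -2.63, without KO mouse 4, to -1.35, without WT mouse 3, with edgeR adjusted p of 0.0812 to 1.00. It was -1.65 ± 0.69 in mice 1 to 8 and -1.90 ± 0.57 in mice 9 to 14, where the WT mice were mice 10 and 12 alone. In uterus the change of Fst was -0.87 ± 0.62 and in endometrium -0.28 ± 0.64 (edgeR adjusted p = 0.920 and 0.998).

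Of the BMP genes, Bmp7 had lower means in KO in all 3 tissues, with log2 changes of -0.86 ± 0.56 in uterus, -0.75 ± 0.46 in endometrium and -0.83 ± 0.69 in myometrium, none past the test (edgeR adjusted p = 0.911, 0.959 and 1.00). The tissues come from the same 14 mice. Bmp2 changed by 0.13 ± 0.73, -0.74 ± 0.69 and 0.12 ± 0.61 in the same order, and Inhba by -0.58 ± 0.70, 0.16 ± 0.55 and -0.31 ± 0.58. For Bmp4 the values were -0.47 ± 0.56, 0.0021 and -0.60 ± 0.48, and those of Tgfb1 lay between -0.23 and 0.41 in the 3 tissues. For Tgfb2 the 3 changes lay between -0.34 and 0.06 and for Tgfb3 between -0.47 and -0.01.

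**Figure D3:**
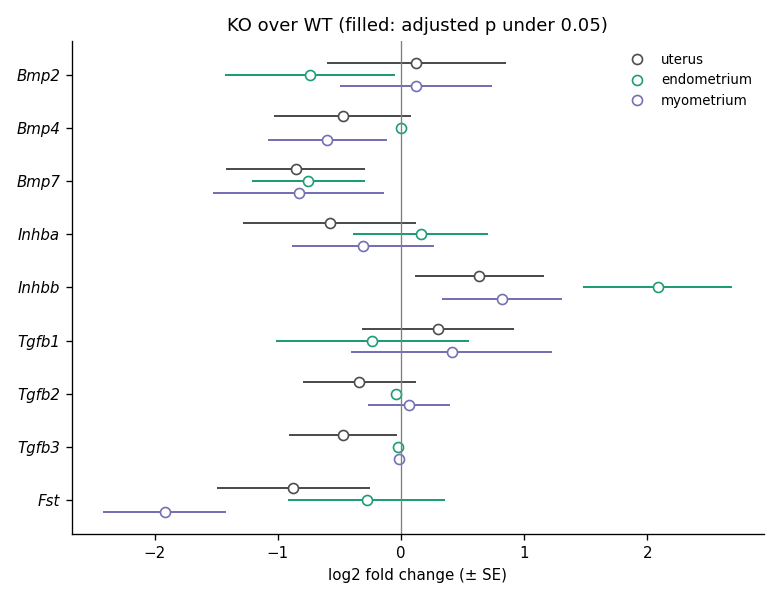
Log2 fold change of KO over WT (horizontal axis, with SE) for the 9 tested genes in uterus (grey), endometrium (green) and myometrium (purple), 7 mice per genotype, with no bar where the change was under 0.05 in size. All symbols are open, since 0 genes passed the adjusted threshold, and Inhbb in endometrium and Fst in myometrium lie farthest from 0.

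The layers were also compared between genotypes by an interaction term, the change of endometrium over myometrium in KO minus that in WT. Among the 9 genes 0 were called, as were 0% of 14314 genes, and 0 of the 9 had an unadjusted p under 0.05 (against 4.6% of all genes). DESeq2 called 0 as well. The edgeR fit did not pair the layers of a mouse, and limma voom with the mouse as a random block also called 0 of the 9. The largest values were those of Fst (1.69 ± 0.90, edgeR adjusted p = 0.993) and Inhbb (1.26 ± 0.85, edgeR adjusted p = 0.993). The layer change of Inhbb, called in WT and not in KO, was therefore not shown to differ between the genotypes. For Bmp7 the interaction was 0.11 ± 0.65, and for Bmp2, Bmp4 and Inhba it was -0.84 ± 0.88, 0.60 ± 0.87 and 0.50 ± 0.82. It was -0.63 ± 1.17 for Tgfb1, -0.09 ± 0.65 for Tgfb2 and -0.00059 for Tgfb3.

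Some of these genes varied more between mice of a group than genes of like level did. The biological coefficient of variation, the spread between mice of a group beyond counting error in a single fit of the 6 groups, was 0.86 for Fst, 0.706 for Inhbb and 0.62 for Tgfb2. The medians of genes within 0.5 log2 CPM of each were 0.335, 0.395 and 0.322. Inhba (0.66 against 0.48), Tgfb3 (0.54 against 0.38) and, by less, Tgfb1 (0.65 against 0.60) were also above their medians. Bmp7, at 0.45, was close to its median of 0.476. Bmp4 (0.43 against 0.49) and Bmp2 (0.299 against 0.61) were under theirs.

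Some mice ranked high or low in their group in more than 1 tissue. Tgfb2 in KO mouse 13 was the highest of the KO group in uterus (54.1 CPM) and endometrium (157 CPM) and the next highest in myometrium (89.7 CPM), and KO mouse 9 was lowest in endometrium (8.7 CPM) and next lowest in myometrium (22.6 CPM). Inhbb in KO mouse 11 was the highest of the KO group in uterus (37 CPM), endometrium (81 CPM) and myometrium (92.6 CPM). With each mouse's log2 CPM taken as its deviation from the genotype mean, Tgfb2 correlated over the 14 mice between endometrium and myometrium with Pearson's r = 0.716 (permutation p = 0.00846, 0.0761 adjusted over 27 relations) and Spearman's rho = 0.846 (permutation p = 0.00076, adjusted 0.0205). Between uterus and endometrium r was 0.765 (permutation p = 0.00258, adjusted 0.0509) and rho 0.723 (permutation p = 0.00567, adjusted 0.0589), and between uterus and myometrium r was 0.617 (permutation p = 0.0243, adjusted 0.164) and rho 0.609 (permutation p = 0.0267, adjusted 0.180).

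Without the 2 mice farthest from the median these r values of Tgfb2 were 0.625, 0.681 and 0.593. They were 0.679, 0.826 and 0.701 within mice 1 to 8, and 0.917, 0.723 and 0.618 within mice 9 to 14. Over all genes the median r between the same tissues was 0.05, 0.10 and 0.03, and 1.47%, 1.85% and 3.51% of genes reached the r of Tgfb2. These genes included those of low counts and were not matched to Tgfb2 on level, so the shares do not compare it with genes of like level. The 2 endometrium samples with the high smooth muscle sums, WT mouse 3 and KO mouse 13, were the highest of their genotypes for Tgfb2 in endometrium (144 and 157 CPM). Without these 2 mice the r values of Tgfb2 were 0.615, 0.682 and 0.485, and the part of muscle in these samples was not tested.

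Inhbb correlated between endometrium and myometrium with r = 0.839 (permutation p = 0.00377, adjusted 0.0509) and rho = 0.82 (permutation p = 0.00654, adjusted 0.0589), and 0.331% of all genes, not matched on level, reached this r. It was 0.703 without the 2 mice farthest from the median (KO mice 11 and 14), 0.85 without WT mouse 3 and KO mouse 13, 0.462 within mice 1 to 8 and 0.95 within mice 9 to 14. Between uterus and myometrium r was 0.551 (permutation p = 0.044, adjusted 0.198) and rho 0.354 (permutation p = 0.272, adjusted 0.735), and r fell to 0.126 without WT mouse 7 and KO mouse 11, so that relation rested on these mice. Between uterus and endometrium r was 0.329 (permutation p = 0.339, adjusted 0.805). Without WT mouse 3 and KO mouse 13 these last 2 values of r were 0.63 and 0.389. By Pearson's r, 0 of the 27 relations (9 genes and 3 pairs of tissues) passed the adjusted threshold, and by Spearman's rho 1 did. These relations were examined after the levels had been seen.

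**Figure D4:**
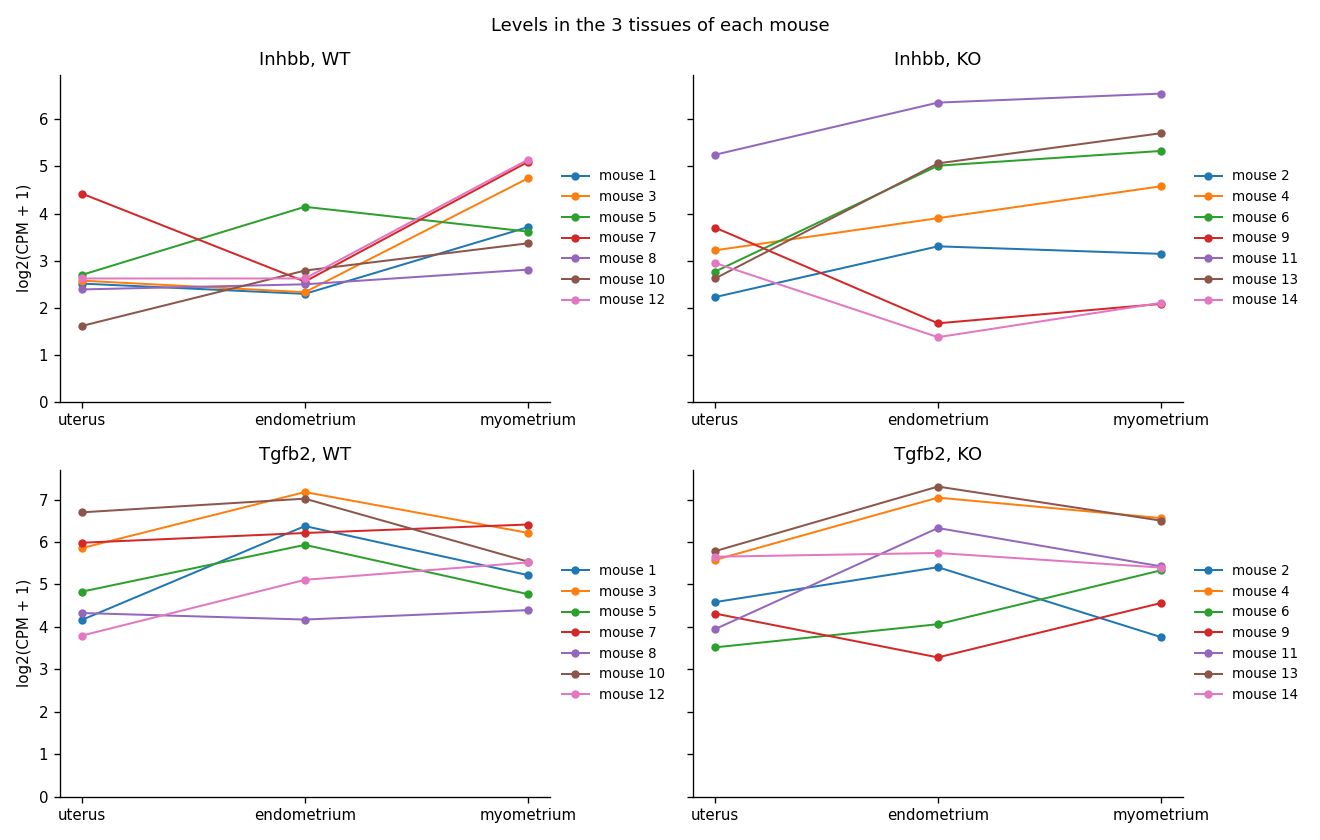
Level of Inhbb (upper panels) and Tgfb2 (lower panels) as log2(CPM + 1) in uterus, endometrium and myometrium, with a line joining the tissues of each WT (left) or KO (right) mouse. The line of KO mouse 11 lies above the other Inhbb lines in all 3 tissues, and Tgfb2 lines keep much of their order between endometrium and myometrium.

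Among 5050 genes with a mean log2 CPM of at least 4, the pattern of Bmp7 over the 42 samples was most like that of Asl, which encodes argininosuccinate lyase of the urea cycle (Pearson's r = 0.722). No other gene reached an r of 0.7 with Bmp7, and none did with the other 8 tested members.

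A list of 91 further genes of the family, its receptors, Smads, antagonists, carriers and response genes was examined between the layers. Of these 65 were tested, and in WT 5 were higher and 12 lower in endometrium (26.2% called), against 6.81% and 6.39% of all genes tested. In KO 4 were higher and 15 lower (29.2% called), against 10.6% and 8.71% of all genes.

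Of the 12 other antagonists tested, 2 were called in WT (16.7%, against 13.2% of all genes) and 3 in KO (25%, against 19.3%), each lower in endometrium. Chrdl2, encoding the BMP-binding chordin-like 2, fell by 4.74 ± 0.64 on the log2 scale in WT and by 4.43 ± 0.57 in KO (edgeR adjusted p = 1.59e-05 and 7.95e-06). Its mean was 0.94 CPM in WT endometrium and 23.2 CPM in WT myometrium. Chrdl1, its relative, fell by 2.87 ± 0.78 and 3.12 ± 0.75. Fstl1 fell by 0.98 ± 0.28 in KO.

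Of 25 other ligands 7 were tested. In WT 2 were called higher and 2 lower (57.1%, against 13.2% of all genes), and in KO 1 higher and 2 lower (42.9%, against 19.3%). Gdf15, a stress-responsive divergent member of the family, was higher in endometrium by 2.38 ± 0.72 in WT and 2.21 ± 0.57 in KO (edgeR adjusted p = 0.0273 and 0.00797). Gdf5 changed by -3.17 ± 0.70 and -2.50 ± 0.84, and Gdf10 by -1.55 ± 0.50 and -1.70 ± 0.38 (WT and KO), all lower in endometrium. Bmp3, called higher in WT endometrium, had 13 counts there and 0 in WT myometrium.

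Of the 15 receptors and co-receptors tested, 3 were called in WT (20%, against 13.2% of all genes) and 4 in KO (26.7%, against 19.3%), each lower in endometrium. The BMP co-receptor gene Rgma changed by -2.52 ± 0.34 in WT and -2.07 ± 0.34 in KO (edgeR adjusted p = 1.82e-05 and 0.000109). Tgfbr3, encoding betaglycan, and Acvrl1, encoding ALK1, changed by -1.25 ± 0.34 and -0.90 ± 0.28 in WT. The type II receptor genes Acvr2a and Amhr2 changed by -2.67 ± 0.65 and -2.69 ± 0.88 in KO.

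Among Smads, Smad4, the shared partner of the receptor-regulated Smads, was the gene called, at -1.12 ± 0.37 in WT and -1.10 ± 0.33 in KO. It was 1 of 8 Smads tested in WT (12.5%, against 13.2% of all genes) and 1 of 7 in KO (14.3%, against 19.3%). Among carriers of latent TGF-beta, Ltbp4 was lower in both genotypes (-1.07 ± 0.25 and -1.09 ± 0.21). Ltbp1 was called in WT (-1.94 ± 0.42), and Itgav, an integrin subunit that takes part in TGF-beta activation, in KO (-1.17 ± 0.40). Of the carriers and activators tested, 2 of 11 were called in WT (18.2%) and 2 of 12 in KO (16.7%).

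Response genes changed in both directions. Msx1 and Msx2, homeobox genes of the uterine epithelium and stroma, were higher in endometrium by 2.44 ± 0.35 and 2.89 ± 0.71 in WT and by 2.38 ± 0.40 and 2.65 ± 0.80 in KO, and Tgfbi, a TGF-beta-induced matrix protein gene, by 1.70 ± 0.31 and 2.30 ± 0.41. Id4, a BMP-responsive inhibitor of basic helix-loop-helix factors, changed by -2.81 ± 0.59 in KO. Its relatives Id2 and Id3, named here after their values were seen, were called lower in both genotypes, by -1.28 ± 0.28 and -1.65 ± 0.39 in WT and by -1.47 ± 0.27 and -1.05 ± 0.26 in KO. Id1 was called in neither genotype, and in KO its change was 0.36 ± 0.29 (edgeR adjusted p = 0.438). Of the 12 response genes, all tested, 3 were called higher and 2 lower in WT (41.7% called, against 13.2% of all genes). In KO 3 were called higher and 3 lower (50%, against 19.3%). Between genotypes 0 of the listed genes were called in any tissue or in the interaction, and the smallest unadjusted p was that of Tgfbr3 in uterus (edgeR adjusted p = 0.659), Pmepa1 in endometrium (edgeR adjusted p = 0.855) and Id3 in myometrium (edgeR adjusted p = 1.00).

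**Figure D5:**
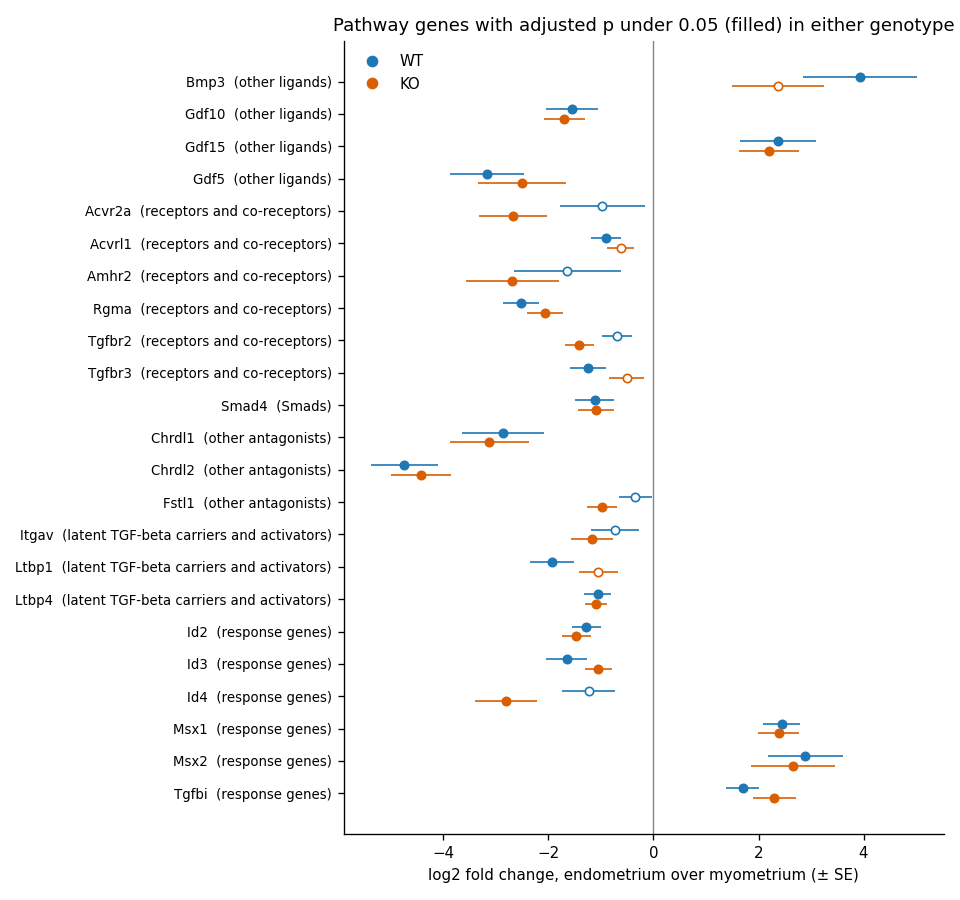
Log2 fold change of endometrium over myometrium (horizontal axis, with SE) in WT (blue) and KO (orange) mice for the listed family genes called in either genotype, grouped by role, with filled symbols for an edgeR adjusted p under 0.05. Most lie left of 0, with Gdf15, Bmp3, Msx1, Msx2 and Tgfbi to the right.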

How the data were processed

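The authors deposited whole counts of molecules for 24422 gene symbols and 92 ERCC spike-ins in 45 STRT libraries, unscaled and unfiltered. Per the study's methods and the submitters' processing notes, reads sharing a molecular identifier were joined, aligned with TopHat to mm9 and counted over UCSC genes with Homer, while the notes also name HTSeq. The treatment of multiply mapped reads and of strand was not stated. RNA input was 10 ng per library. The paper gives a 46-plex format for its embryo libraries. The table held 0 columns of per-sample values beyond the labelled libraries.

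Groups came from the labels (3 tissues, 2 genotypes, 7 mice each), and the repeat libraries of KO mouse 13 endometrium (3) and WT mouse 12 myometrium (2) were summed, so that a mouse was 1 replicate. Each pair of groups was fitted alone with edgeR 4.0.16 in R 4.3.3 (quasi-likelihood F test, TMM factors, genes at 1 CPM or more in 5 or more samples, Benjamini-Hochberg adjustment over all genes tested, threshold 0.05). Samples of both layers and genotypes entered the interaction fit. The SE was the size of the log2 change divided by the square root of F, and was left out for changes under 0.05. Levels are CPM of the summed counts, and log2(CPM + 1) was used for means in the order of groups. The floors cover counting error only, whereas the SEs and SDs include the spread between mice.

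The labels give the same mouse number to the 3 tissues of an animal, which pairs them. Deviations from group means correlated between endometrium and myometrium of the same mouse with r of 0.0275 to 0.179 over genes. Alternatives were DESeq2 1.42.0, RLE factors, ERCC scaling, a filter at 10 CPM or none, a single fit of 6 groups, the mouse as a replicate block (limma 3.58.1 with voom for genotype terms), mice 1 to 8 or 9 to 14 alone, plate rows as a covariate, and leaving out each mouse. Scripts were tested on simulated data. Correlations between tissues used 100000 permutations of mice within genotype, and these and their values without mice 3 and 13 were added after the data had been seen. All 10 genes were to be named in each comparison, and those far from the threshold are given by ranges or in figures. Of the list of 91 related genes, at most 3 called genes per role with the largest change were named between the layers, and elsewhere the called genes or that with the smallest p. Genes of like pattern needed r of at least 0.7. The genes, lists and tests were chosen with earlier results of these data known. Promoters were taken from RefSeq (GRCm38.p6) and gene positions from GENCODE on NCBIM37, the build of mm9.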

Additional observations from a re-analysis of the deposited data

Results flagged for a closer look

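A gap between the highest or the lowest mouse and its nearest neighbour larger than expected within a group of 7 (Dixon's ratio past its critical value on log2(CPM + 1)) was found in 5 of 56 sets of 7 mice examined. A set was 1 gene in 1 group. About 5% of sets would be flagged by chance, a rate that assumes continuous values and need not hold for low counts tied at 0. Inhbb was highest in WT mouse 7 in uterus, at 20.5 CPM (25 counts) with the next mouse at 5.49 CPM, and highest in WT mouse 5 in endometrium, at 16.7 CPM with the next mouse at 5.91 CPM. The endometrium value of WT mouse 5 rested on 5 counts. Bmp4 was lowest in KO mouse 13 in myometrium, at 0 CPM with the next mouse at 3.13 CPM. The remaining 2 were the single counts of Grem1 in the uterus of WT mouse 1 (0.94 CPM) and of KO mouse 9 (1.72 CPM), with all other mice of those groups at 0. A single count among zeros always passes this rule.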

How the results depend on the processing

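Over 1508 values of a tested gene in a comparison under another setting, 139 had another sign than reported, and 0 of these were called either way. A further 22 called values lost their call and 15 gained one. Of the 9 tested genes, 0 were called between genotypes or in the interaction under every setting run.

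For endometrium over myometrium in WT, the 2 calls became 1 in the single fit of 6 groups (Inhbb lost, adjusted p = 0.0794) and 0 in mice 1 to 8, and ran from 0 to 2 when a mouse was left out. In KO the 1 call became 3 with ERCC scaling and with the replicate block (Bmp7, Fst and Tgfb3), 0 at 10 CPM, where Bmp7 was not tested, 0 in mice 1 to 8 and 1 in mice 9 to 14 (Tgfb3 in place of Bmp7), and ran from 0 to 1 when a mouse was left out (Bmp7 without KO mouse 14, Fst without KO mouse 4, Tgfb3 without KO mouse 6, and 0 for the other 4). For uterus over endometrium in WT, 0 became 1 (Bmp7) with DESeq2, the single fit and the replicate block. For uterus over myometrium in WT, 1 became 2 at 10 CPM and with the replicate block (Inhbb and Tgfb3) and 0 in the single fit and in mice 1 to 8, and ran from 0 to 1 when a mouse was left out. In KO, 0 became 1 (Inhbb) with no gene filter and with the replicate block. Pairing by the replicate block changed no other call. The cause of these changes was not tested, except that fits of fewer mice hold fewer samples. Fits of WT tissues in mice 9 to 14 were not possible, since 4 samples cannot meet a filter of 5.

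Of the 139, the 23 that moved by more than the SE, all uncalled, were these. With ERCC scaling, Fst became 0.79 for uterus over endometrium in WT, and for uterus over myometrium in WT Bmp4 became 0.068, Bmp7 0.67, Fst 0.44 and Inhba 0.61. In mice 1 to 8, Fst became -0.43 (endometrium over myometrium, KO) and 0.71 (uterus over endometrium, KO), Inhbb -0.31 (KO over WT, uterus) and Tgfb3 0.76 (KO over WT, myometrium). In mice 9 to 14, Tgfb1 became -1.32 (uterus over endometrium, KO) and -0.78 (uterus over myometrium, KO), Bmp4 0.54 (KO over WT, uterus), Bmp2 0.25 and Tgfb3 0.56 (KO over WT, endometrium) and Tgfb3 1.74 (interaction). When a mouse was left out, Fst ran from -1.36 to 0.35 (endometrium over myometrium, WT), -0.86 to 1.01 (uterus over endometrium, WT), -0.99 to 0.29 (uterus over myometrium, WT) and -0.93 to 0.67 (KO over WT, endometrium), Tgfb1 from -0.74 to 0.60 (uterus over endometrium, WT) and -0.59 to 0.63 (KO over WT, endometrium), Inhbb from -0.18 to 0.76 (uterus over endometrium, WT) and Tgfb3 from -0.18 to 0.60 (KO over WT, endometrium). The correlation of Inhbb between uterus and endometrium became -0.175 without its 2 farthest mice.

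ERCC scaling moved the median log2 change of all genes to 0.21 and 0.57 (endometrium over myometrium, WT and KO), 0.53 and -0.14 (uterus over endometrium), 0.75 and 0.42 (uterus over myometrium), -0.37 and 0.27 (KO over WT in uterus and endometrium) and 0.35 (interaction), and the share of higher calls among the tissue comparisons in that order from 51.6%, 54.9%, 65.7%, 74.1%, 55.9% and 57% to 67.3%, 86.3%, 97.3%, 90%, 97.1% and 92.9%. Counts of all genes called that moved most were those for uterus over endometrium, from 210 to 403 (DESeq2), 518 (ERCC), 439 (single fit), 671 (replicate block) and 20 (mice 1 to 8) in WT, and from 162 to 389, 20, 346, 475, 64 and, in mice 9 to 14, 2 in KO, and when a mouse was left out the WT counts were 59 to 221 and the KO counts 16 to 294. Those for endometrium over myometrium fell to 672 in WT mice 1 to 8 and to 918 and 745 in KO mice 1 to 8 and 9 to 14. For endometrium over myometrium in WT they ran from 1158 to 1825 when a mouse was left out, and for uterus over myometrium from 837 to 1842 in WT and 1085 to 2168 in KO. For uterus over myometrium they became 4567 (ERCC) and 509 (mice 1 to 8) in WT, and 616 and 271 (mice 1 to 8 and 9 to 14) in KO. Between genotypes they became 1 (DESeq2) and 7 (single fit) in endometrium and 1 (ERCC) and 3 (no filter) in myometrium. Depth limits Bmp2, Bmp4, Inhba, Tgfb1 and Grem1 most, with samples at 0 to a few counts, and Bmp7 in myometrium and KO uterus as well.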
